A study of Homo sapiens with 2 samples.

Results

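The sites described here are the 282 regions called for TCF7L1 without an overlapping call for its DNA-binding mutant that lay beside promoters. The promoters are those of protein-coding genes, and the sites lay neither at the promoter itself nor far from it. They were selected on both of 2 features of the deposited peak lists, the absence of an overlapping TCF7L1-MUT region by even 1 bp and a summit more than 1 kb and at most 5 kb from the nearest transcription start site (TSS) of a protein-coding transcript. They make up 282 of the 3663 distinct TCF7L1 regions in the series, of which 3566 lay on chromosomes 1 to 22 and X. Of those, 3487 (97.8%) had no TCF7L1-MUT partner, a share that the selection itself used. The whole TCF7L1-MUT list held 204 regions, and 4 of the 286 TCF7L1 regions at this distance were set aside because they met one. In this text upstream and downstream are read along the strand of the nearest TSS, and 100 sites lay upstream and 182 downstream.

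Chromatin was taken from HCT116, an established human colon carcinoma line with a mutation that stabilises β-catenin and so activates Wnt signalling. In both groups the endogenous TCF7L1 transcript was lowered with the short hairpin RNA shTCF7L1-2, and 1 µg/ml doxycycline switched on a pCW57.1 plasmid. The plasmid encoded FLAG-tagged TCF7L1 in one group and FLAG-tagged TCF7L1-MUT, which carries point mutations in its HMG box, in the other, and both were precipitated with an anti-FLAG antibody. Each group was 1 sample, so no value has a replicate check, and binding refers to an induced, tagged protein in a single line. The lists hold called regions, so total depth was not analysed here and the cell type could not be checked against marker genes. Intervals are 95% intervals over regions and cover counting error only, and no p-value was computed.

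TCF7L1 belongs to the TCF/LEF family, whose HMG box bends DNA at a short sequence with the core CTTTG. Without β-catenin these factors recruit TLE corepressors and keep Wnt target genes low, and when β-catenin enters the nucleus it replaces the corepressor on several family members. TCF7L1 is the member best known as a repressor, and it restrains lineage genes in stem cells. DNA just beyond a promoter, mostly the start of the first intron or the sequence ahead of the gene, often holds enhancers and silencers and additional start sites.

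To show what was bound, the reference sequence around the summit is given for the strongest single-copy sites on each side whose TCF pattern lay wholly within 30 bp of the summit. The TCF pattern is CTTTG followed by AA, AT, TA or TT, searched on both strands, and it is written in capitals. Each stretch has 61 bases of GRCh38/hg38 and reads 5′ to 3′ along the strand of the gene, so a pattern on the other strand appears reversed, as TTCAAAG for CTTTGAA.
GSK3B upstream site, chr3:120004211-120004271, minus strand: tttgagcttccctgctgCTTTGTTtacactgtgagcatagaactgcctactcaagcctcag
SHC3 upstream site, chr9:89180468-89180528, minus strand: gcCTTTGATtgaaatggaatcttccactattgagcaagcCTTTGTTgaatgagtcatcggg
SLC16A11 upstream site, chr17:7047067-7047127, minus strand: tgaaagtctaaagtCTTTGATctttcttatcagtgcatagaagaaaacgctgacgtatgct
LEF1 upstream site, chr4:108173329-108173389, minus strand: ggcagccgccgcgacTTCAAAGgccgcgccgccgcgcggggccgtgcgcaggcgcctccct
MAP3K1 downstream site, chr5:56816896-56816956, plus strand: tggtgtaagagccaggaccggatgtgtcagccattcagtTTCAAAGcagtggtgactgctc
KDM7A downstream site, chr7:140175567-140175627, minus strand: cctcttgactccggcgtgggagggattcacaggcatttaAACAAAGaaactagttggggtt
ELK3 downstream site, chr12:96195796-96195856, plus strand: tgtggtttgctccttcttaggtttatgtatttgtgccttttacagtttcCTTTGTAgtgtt
STX1A downstream site, chr7:73715772-73715832, minus strand: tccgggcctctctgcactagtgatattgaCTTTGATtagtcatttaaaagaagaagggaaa
In the GSK3B stretch the match runs into a forkhead pattern, TGTTTAC, which overlaps it. The SHC3 stretch has CTTTGAT and CTTTGTT, with the AP-1 pattern TGAGTCA beside the latter. The LEF1 match stands in otherwise GC-rich sequence, and the STX1A match lies at the summit. All of these are matches in the reference, not measured contacts of the protein.

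GSK3B encodes a kinase that marks β-catenin for degradation, and its site had a fold enrichment of 7.22, the third highest upstream. That site lay in an intron of a coding gene, so upstream refers here to the nearest TSS only. Fold enrichment is the authors' ratio of read depth at the summit to a local background depth; whether that background came from an input library is not given in the sources used here. LEF1 encodes a TCF/LEF factor, and its site, 4403 bp upstream, had a fold enrichment of 6.12 and lay 19 bp from the start of a long non-coding RNA (lncRNA). MAP3K1, a kinase of the JNK pathway, had a fold enrichment of 7.41 at 1377 bp downstream. The other stretches come from SHC3, an adaptor of receptor kinases (6.62), SLC16A11, a monocarboxylate transporter (6.36), KDM7A, a histone demethylase (5.96), ELK3, an ETS factor (5.84), and STX1A, a syntaxin of vesicle fusion (5.65).

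Sites at Wnt genes followed next, because the family acts in this pathway. FZD8, a Wnt receptor among the genes the study names, had sites on both sides and no TCF pattern in either stretch. BAMBI, WNT16 and TLE3 were added after their values were seen, as the remaining genes of the Wnt list with a TCF pattern within 100 bp of the summit. The WNT16 and TLE3 stretches are centred on the match, which lay 70 and 85 bp from the summit, and the others on the summit.
FZD8 downstream site, chr10:35637537-35637597, minus strand: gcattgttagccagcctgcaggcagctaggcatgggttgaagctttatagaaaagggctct
FZD8 upstream site, chr10:35643383-35643443, minus strand: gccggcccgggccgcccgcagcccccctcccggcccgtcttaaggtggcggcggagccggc
BAMBI downstream site, chr10:28679132-28679192, plus strand: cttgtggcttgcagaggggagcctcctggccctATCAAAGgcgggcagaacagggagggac
WNT16 downstream site, chr7:121330418-121330478, plus strand: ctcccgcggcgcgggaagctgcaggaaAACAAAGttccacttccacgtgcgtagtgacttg
TLE3 upstream site, chr15:70100325-70100385, minus strand: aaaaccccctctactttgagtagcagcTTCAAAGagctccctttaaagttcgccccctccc
The upstream FZD8 stretch was mostly G and C, whereas the downstream one was mixed in composition. The matches at BAMBI, WNT16 and TLE3 all read on the strand opposite to the gene.

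The rule fixed the distance of a site from the TSS and left its side free, so the sides could be compared. Of the 282 sites, 35.5% lay upstream (interval 30.1 to 41.2%) and 64.5% downstream (58.8 to 69.9%). Genome positions on a grid of every 500th base that met the same distance rule were 52.2% downstream, which is 12.4 percentage points less (interval of the difference 6.61 to 17.7). Per Mb of genome at this distance, there were 1.62 sites downstream (1.39 to 1.87) and 0.969 upstream (0.788 to 1.18), a density ratio of 1.67 (1.30 to 2.15). With this set of start sites, TCF7L1 sites beside promoters were more frequent downstream of the nearest TSS than upstream of it.

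The comparison was repeated by distance. Between 1 and 2 kb there were 85 sites downstream and 44 upstream, and the density ratio was 1.80 (1.23 to 2.65). The ratio was 1.60 (0.934 to 2.80) from 2 to 3 kb, 1.77 (0.994 to 3.26) from 3 to 4 kb and 1.29 (0.619 to 2.76) from 4 to 5 kb, and these 3 intervals included 1. Neither neighbouring zone showed an excess, since the ratio was 0.951 (0.812 to 1.11) for the 639 TCF7L1-only sites within 1 kb of a TSS and 1.02 (0.764 to 1.36) from 5 to 10 kb. The downstream share at 1 to 5 kb was 14.5 points above that within 1 kb (7.54 to 21.1) and 11 points above that from 5 to 10 kb (2.09 to 19.8).

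**Figure D1:**
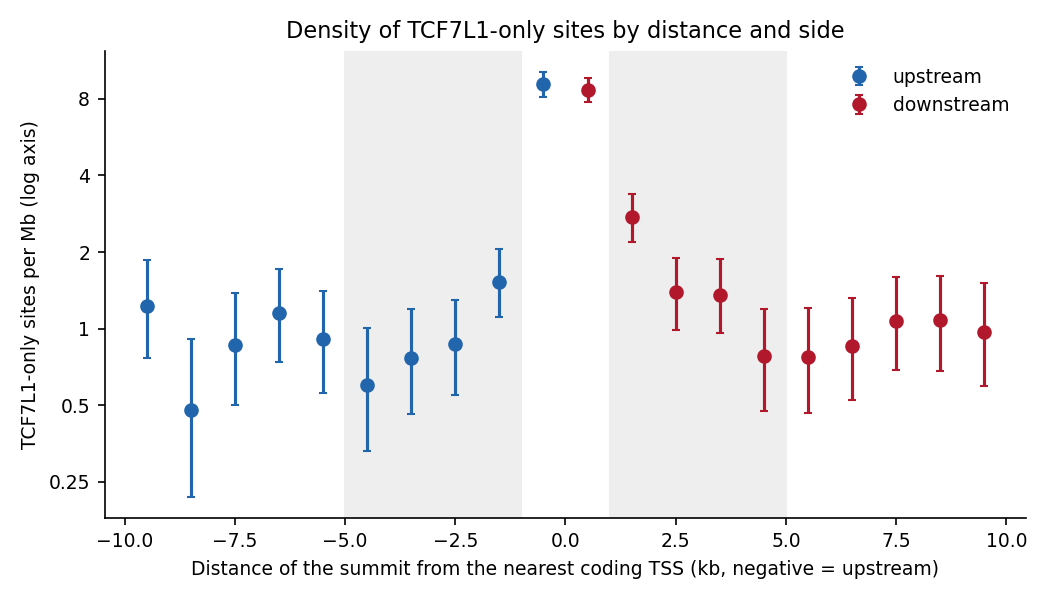
TCF7L1-only sites per Mb of genome (log axis) in bins of 1 kb against the distance of the summit from the nearest coding TSS, with exact 95% Poisson intervals as bars and the range from 1 to 5 kb shaded. Density was 9.14 per Mb in the bin just upstream of the TSS and 8.70 just downstream, then 1.52 upstream and 2.74 downstream from 1 to 2 kb, and 0.603 and 0.778 from 4 to 5 kb.

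The excess depended on which start sites were counted. In an alternative set, coding genes' transcripts of every type were counted, not only those of type protein_coding. Sites and start sites then paired differently, and 336 sites met the distance rule. Their downstream share was 3.48 points above the grid (interval -1.87 to 8.72), no longer clear of 0. With only the 5′ end of each gene 261 sites met the rule, and their downstream share was 20.5 points above the grid (14.8 to 25.6). Among the 95 sites with a fold enrichment of at least 5 the difference was 8.87 points (-1.18 to 18.1). Starts of coding genes' transcripts of other types than protein_coding lay within 1 kb of 18 downstream sites (9.89%) and 3 upstream sites (3.0%). The shares of grid positions on those sides were 9.07% and 4.61%.

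Most downstream sites were in introns. Of the 182, 159 (87.4%) were in an intron of a coding gene and 8 in an exon of a coding gene's transcript not of type protein_coding. A further 4 were in a coding exon, 3 in an untranslated region, 6 between genes and 2 in a lncRNA gene. The body of a coding gene held 95.6% of downstream sites and 95.2% of downstream grid positions, so the placement was close to that of the grid. Upstream, 43 of 100 sites were intergenic, 39 were intronic and 14 were in lncRNA genes. A further 2 were in an exon of a coding gene's transcript not of type protein_coding, and 2 in another gene. The body of a coding gene held 41% of upstream sites (31.9 to 50.8%), against 52.1% of upstream grid positions, so fewer upstream sites than positions lay inside genes. The intronic ones arose mainly where a gene has a start site inside a longer form of itself, as 37 upstream sites lay in the body of the gene whose TSS was nearest. The nearest TSS was within 1 kb of the 5′ end of its gene for 61 upstream sites (61%) and 106 downstream sites (58.2%).

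Starts of lncRNA genes were near more of these sites than of comparable positions. An annotated lncRNA TSS lay within 1 kb of 30 sites (10.6%, interval 7.55 to 14.8%), against 2.43% of grid positions, a difference of 8.21 points (5.12 to 12.3). The share was 12% upstream and 9.89% downstream, with an interval of the difference from -5.10 to 10.7 points. Beside LEF1 this distance was 19 bp, beside HOXA3 10 bp, beside ZEB2 11 bp and beside ID4 76 bp. A site counted here as flanking a coding promoter can therefore sit at the start of a non-coding gene.

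In strength the sites were modest, and the sides differed little. The median fold enrichment was 4.41 (interval 4.29 to 4.54, range 2.41 to 12.8), and it was 4.42 upstream and 4.40 downstream. The shift between the sides on the log2 scale was 0.01 (-0.08 to 0.09). The median −log10 q-value was 5.38 (range 1.38 to 42.0). The number of reads covering a summit was recovered from the deposited enrichment and p-value and had a median of 24.0 (range 9 to 112) over a median local background of 4.60. A count of 24 reads carries wide counting error, so the order of sites of similar strength is not firm.

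Fold enrichment was lower at these sites than at those from 5 to 100 kb from a coding TSS, and close to that within 1 kb. Against the 1592 TCF7L1-only sites from 5 to 100 kb, whose median was 5.00, the shift on the log2 scale was -0.15 (-0.19 to -0.11). Against the sites within 1 kb, with a median of 4.59, it was -0.04 (-0.09 to 0.00). The median −log10 q-value did not follow the same order, at 5.54 from 5 to 100 kb, 5.38 here and 4.55 within 1 kb. Multi-copy sequence, defined below, held 22.2% of the sites from 5 to 100 kb and 12.4% of those described here. The regions described here had a median width of 408 bp.

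**Figure D2:**
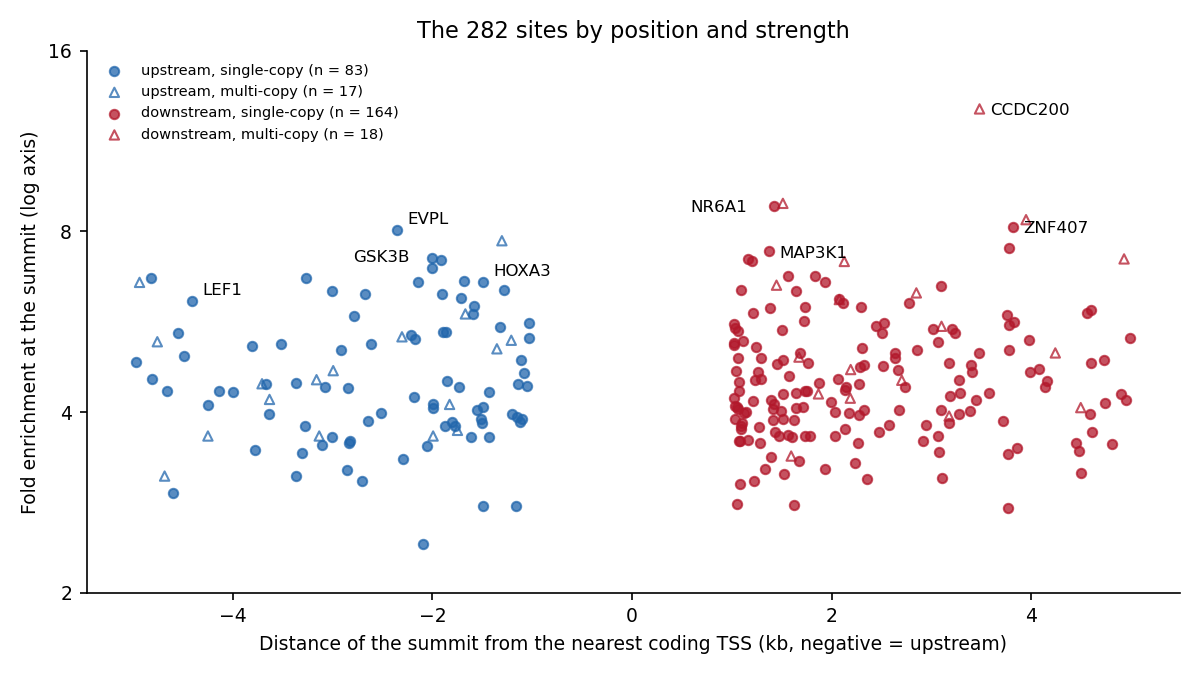
Fold enrichment at the summit (log axis) of each of the 282 sites against its distance from the nearest coding TSS, upstream in blue and downstream in red, with open triangles for multi-copy sequence. Values on both sides centre near the medians of 4.42 and 4.40, and CCDC200, in multi-copy sequence, has the highest value of 12.8.

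The strongest upstream sites were at EVPL, which encodes the cornified envelope protein envoplakin, with a fold enrichment of 8.03, and at POLR2J2 with 7.72, GSK3B with 7.22, ZBTB1 with 7.17, TCF4 with 6.95, PRDM16 and RASL10B with 6.70 each and SHC3 with 6.62. The EVPL summit held 70 reads over a background of 7.84, at chr17:76029346-76029936 and 2355 bp from the TSS, and the window of 100 bp to either side held none of the 4 patterns searched. ZBTB1, a zinc finger factor of lymphocyte development, had 64 reads over 8.06 and a TCF pattern 39 bp from the summit. TCF4, a basic helix-loop-helix factor that is not of the TCF/LEF family despite its name, also had a TCF7L1-only site within 1 kb of a TSS. The upstream sites at GSK3B, ZBTB1, TCF4 and PRDM16 lay in introns of coding genes.

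The strongest downstream sites were at CCDC200 with a fold enrichment of 12.8, SRGAP2B, a partial duplicate of SRGAP2, with 8.91, NR6A1 with 8.82, CT45A3 with 8.37, ZNF407 with 8.13, DHRS12 with 7.52, MAP3K1 with 7.41 and HHIPL2 with 7.20. NR6A1, an orphan nuclear receptor that acts in germ cells and early embryos, had the highest −log10 q-value of all 282 sites, 42.0, from 77 reads over 7.84 at chr9:124769554-124770381. Its summit was 1419 bp downstream of the TSS and 255 bp from a lncRNA start, and a TCF pattern lay 62 bp away.

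Several of the highest ratios came from sequence present more than once in the genome. CCDC200, SRGAP2B, CT45A3 and POLR2J2 were multi-copy, meaning that at least 50% of the 31-base words in the window occurred elsewhere too, with medians of 13, 4, 5 and 7 copies. CT45A3, a cancer-testis gene of a tandem family, had 11 reads over a background of 0.434, and CCDC200 had 21 over 0.713. Reads cannot be placed among such copies with confidence, and the gene name is uncertain there. In all, 35 sites (12.4%, 9.06 to 16.8%) were multi-copy, against 14.7% of grid positions, with 17 upstream and 18 downstream. Their fold enrichment was higher than that of the 247 single-copy sites by 0.16 on the log2 scale (0.03 to 0.30).

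The TCF pattern was the sequence of first interest. It occurred within 100 bp of the summit at 66 of 282 sites (23.4%, interval 18.8 to 28.7%). It was present in 14.2% of all grid windows of the same length at this distance from a TSS, and in 8.92% after these were weighted to the GC content of the sites. The ratio was thus 2.62 (2.11 to 3.22) with the weighting and 1.65 (1.32 to 2.02) without it. Most sites, 216 of 282, held no match of this form.

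The matches were densest around the summits. In bins of 50 bp their density was 1.99 per kb just before the summit and 1.77 just after it, against 0.801 in grid windows. It was 1.84 in the bin centred 125 bp before the summit and 0.993 in the bin centred 75 bp after it, so the rise was uneven, and it ranged from 0.496 to 1.13 in bins centred 225 bp or more away. The nearest match was a median of 31 bp from the summit and within 30 bp at 33 of the 66 sites. CTTTGAT was present at 24 sites, CTTTGAA at 22, CTTTGTT at 19 and CTTTGTA at 14, and 15 sites had 2 or more matches. The nearest match read along the gene's strand at 37 of 66 sites.

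**Figure D3:**
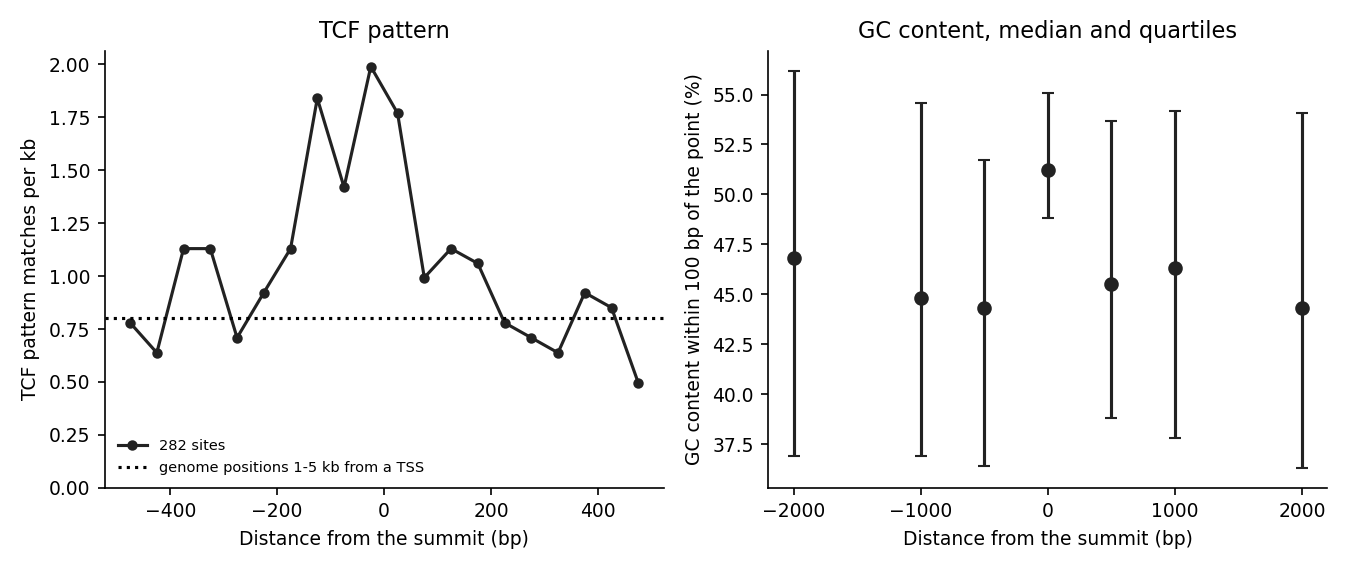
Left, matches to the TCF pattern per kb in bins of 50 bp around the summits of the 282 sites, with the grid density of 0.801 as a dotted line. Right, median GC content with quartiles within 100 bp of the summit and of points up to 2 kb to either side, which was 51.2% at the summit and between 44.3 and 46.8% elsewhere.

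Base composition at the summits was distinctive. The median GC content within 100 bp of the summit was 51.2% with quartiles of 48.8 and 55.1%, whereas windows 500 bp away had medians of 44.3 and 45.5% and grid windows 44.3% (quartiles 36.8 and 51.2%). GC content between 48 and 56%, a range set after the values were seen, was found at 161 of 282 sites and 24.5% of grid positions, a difference of 32.6 points (26.7 to 38.2). Distal sites had the same median of 51.2%. The GC content moves with the presence of a called site, and its part in the calling was not tested.

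The share of sites with a TCF pattern did not separate the sides. It was 27.0% upstream, a ratio of 3.17 (2.27 to 4.28) to GC-weighted grid windows of that side, and 21.4% downstream, a ratio of 2.33 (1.75 to 3.04). The difference was 5.57 points (-4.54 to 16.4). Nor did it follow strength, at 24.1% of sites at or above the median fold enrichment and 22.7% below it (difference 1.42 points, -8.45 to 11.3). It was 22.2% within 1 kb of a TSS and 28.5% from 5 to 100 kb, and both differences from 23.4% had intervals that included 0. Those shares take no account of GC content. Against GC-weighted grid windows the ratio was 3.26 (2.81 to 3.76) within 1 kb and 3.15 (2.91 to 3.40) from 5 to 100 kb. It was lowest for the sites described here, at 2.62 (2.11 to 3.22), with overlapping intervals.

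Patterns of other factor families were counted in the same windows and against the same GC-weighted grid. AP-1, the dimer of JUN and FOS proteins, binds TGACTCA or TGAGTCA, which occurred at 20 sites (7.09%), a ratio of 2.22 (1.45 to 3.36), and in 3.07% of grid windows. In bins of 50 bp the density of AP-1 matches was uneven, at 0.426 per kb just before the summit and 0.142 just after it. It was 0.638 in the bin centred 275 bp before the summit, against 0.161 in grid windows. The SP/KLF pattern GGGCGG, typical of GC-rich promoters, occurred at 47 sites (16.7%), a ratio of 1.98 (1.52 to 2.55), and in 4.81% of grid windows. The forkhead pattern, TATTTAC or TGTTTAC, occurred at 23 sites (8.16%), a ratio of 3.0 (2.02 to 4.40), and in 6.14% of grid windows. The ratios depended on the background. For the forkhead pattern the ratio was 1.33 (0.895 to 1.94) to unweighted windows and 1.31 (0.886 to 1.92) to windows 1 kb away. To windows 1 kb away it was 1.31 for GGGCGG, with an interval from 1.0 to 1.68, 1.61 (1.30 to 1.97) for the TCF pattern and 2.22 (1.45 to 3.35) for the AP-1 pattern. Forkhead and TCF patterns can overlap, as at GSK3B. For none of these patterns did the interval of the difference between upstream and downstream exclude 0.

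**Figure D4:**
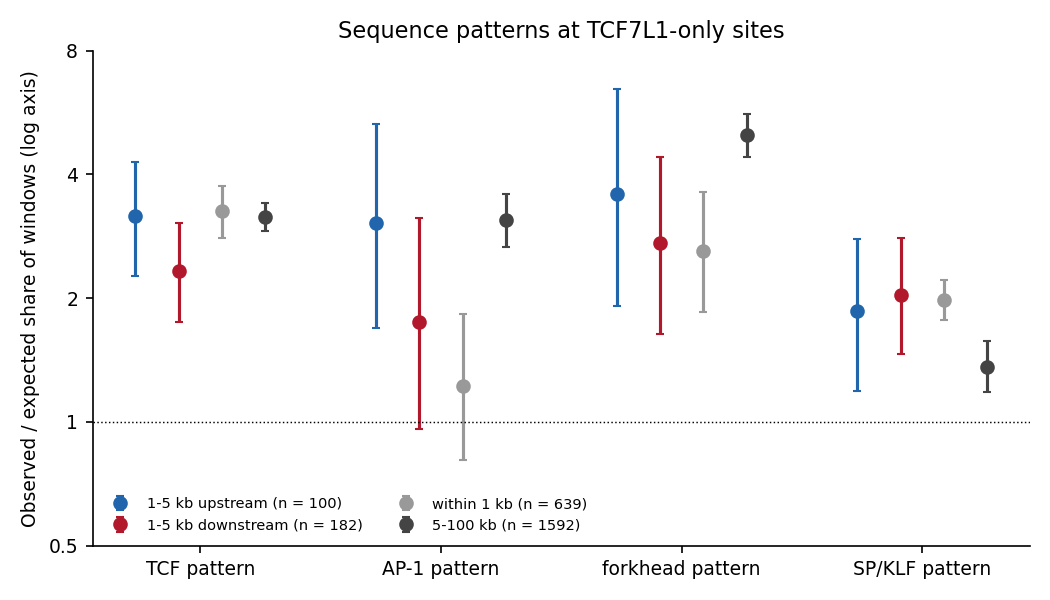
Share of windows of 100 bp to either side of the summit holding a pattern divided by the share in GC-weighted grid windows 1 to 5 kb from a coding TSS (log axis), for upstream and downstream sites and, in grey, TCF7L1-only sites within 1 kb of a TSS and 5 to 100 kb away; bars are 95% intervals. The TCF ratio was 3.17 upstream and 2.33 downstream with overlapping intervals, and the downstream AP-1 interval (0.961 to 3.13) includes 1.

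In the share of CpG island-like sequence the sites stood between promoters and distal sequence. Median GC content did not follow this order, at 55.7% within 1 kb and 51.2% both here and at distal sites. CpG island-like sequence, here GC of at least 50% with an observed over expected CpG of at least 0.6 within 250 bp of the summit, was found at 48 sites (17.0%), against 1.90% of grid positions, 56.8% of sites within 1 kb and 6.34% of distal sites. The differences were -39.8 points from the former (-45.2 to -33.6) and 10.7 from the latter (6.53 to 15.6). Both sides had 17.0%, with a difference of -0.0330 points (-8.68 to 9.75). The share with GGGCGG followed the island-like order, 15.6 points less often than within 1 kb (difference -15.6, -21.0 to -9.63) and 5.74 points more often than at distal sites (1.52 to 10.7). Against GC-weighted grid windows its ratio was 1.98 both here and within 1 kb, and 1.36 (1.18 to 1.57) at distal sites. The AP-1 pattern was 3.65 points more frequent than within 1 kb (0.655 to 7.44), and the forkhead pattern differed from distal sites by -5.54 points (-8.74 to -1.43).

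Island-like sites differed from the others in what they held. The TCF pattern was found at 18 of 48 (37.5%) and at 48 of 234 other sites (20.5%), a difference of 17.0 points (3.47 to 31.9). The AP-1 pattern was found at 0 of 48 and at 20 of 234 (8.55%), a difference of -8.55 points (-12.8 to -0.573). MAP3K1, KDM7A, NR6A1 and LEF1 were island-like with a TCF pattern, and SHC3, ELK3 and STX1A held TCF and AP-1 patterns together outside such sequence. The split by composition was made after earlier results were known.

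The 282 sites were nearest to 276 protein-coding genes, 1.41% of the 19626 annotated, and this percentage is the background for the gene counts that follow. A TCF7L1-only site within 1 kb of a TSS was also present at 25 of these genes (9.06%), compared with 3.04% of other genes, a difference of 6.02 points (3.16 to 10.00). That comparison is per gene and was not adjusted for the number of start sites or the length of flank of a gene. A different coding gene also had a TSS within 5 kb of 29 sites, so the nearest gene is not the sole candidate there. Of the sites, 26 had another TCF7L1 summit within 10 kb. A TCF7L1-MUT summit lay within 100 kb of 3 sites, after the rule had removed overlapping regions. Neighbouring summits were not counted for grid positions or other TCF7L1 sites, so these counts have no background beside them.

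Only 6 genes were nearest to 2 sites each, and none to more. ARID1A, a subunit of SWI/SNF chromatin remodelling complexes, had sites 1714 bp downstream of one TSS and 4252 bp upstream of another, with fold enrichments of 4.08 and 4.11. FZD8 had 3.85 at 1117 bp upstream and 4.89 at 4729 bp downstream. TLE3, a Groucho-type corepressor that TCF factors recruit, had 2.41 upstream, the lowest value of all 282 sites, from 49 reads over the high local background of 19.8, and 3.41 downstream. PRDM16, a zinc finger regulator of brown fat and blood stem cells, had 6.70 and 3.71, GALNT1, which starts mucin-type glycosylation, had 4.60 and 3.65, and YBX3, a cold shock domain protein, had 5.13 and 3.04.

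Among the gene lists examined, Wnt pathway genes and targets had 9 of 91 genes with a site (9.89%, interval 5.29 to 17.7%), against 1.41% of all genes. The 11 sites, 6 upstream and 5 downstream, amounted to 9.95 per Mb of the sequence 1 to 5 kb from the start sites of the list, compared with 1.31 per Mb for all genes. Their median fold enrichment was 4.31, close to 4.41 for all 282 sites, and 5 held a TCF pattern. The list was chosen with results of these data known, so the count describes and does not test.

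By role, the Wnt ligands with sites were WNT5A, a non-canonical ligand, with a fold enrichment of 5.45 at 1866 bp upstream, WNT5B with 3.16 at 1528 bp downstream and WNT16 with 4.29 at 1518 bp downstream. FZD8 was the receptor. BAMBI, a decoy receptor that dampens TGF-β signalling and is a β-catenin target, had 4.31 at 1641 bp downstream, with 49 reads at the summit and a TCF pattern 6 bp away. GSK3B was the inhibitory kinase, and LEF1 the DNA-binding factor.

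The corepressors were TLE3 and TLE4, the latter with a fold enrichment of 4.64 at 1085 bp upstream. Both also had a TCF7L1-only site within 1 kb of a TSS. None of the 11 Wnt sites was in multi-copy sequence.

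The HOX cluster genes, which set position along the body axis, had 9 of 39 genes with a site (23.1%, 12.6 to 38.3%), or 33.1 sites per Mb of flank. HOXA3 was the strongest with 6.58 at 1493 bp upstream and 89 reads over 12.7, followed by HOXC4 with 6.0 at 1580 bp upstream, HOXD12 with 5.19 at 2617 bp upstream and HOXD3 with 4.33 at 1737 bp downstream. The other 5 were HOXC8, HOXD11, HOXB6, HOXB8 and HOXB3, with values from 2.79 to 4.04. These genes lie in 4 clusters, so neighbouring sites are not independent.

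Local background was high at the HOX sites. The median local background was 9.67 reads and the median summit 45.0 reads, against 4.60 and 24.0 over all 282 sites, and at HOXB8 the background was 20. The part of this background in the calls was not tested. A TCF pattern was present at HOXB3 and HOXB8 alone among the 9.

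**Figure D5:**
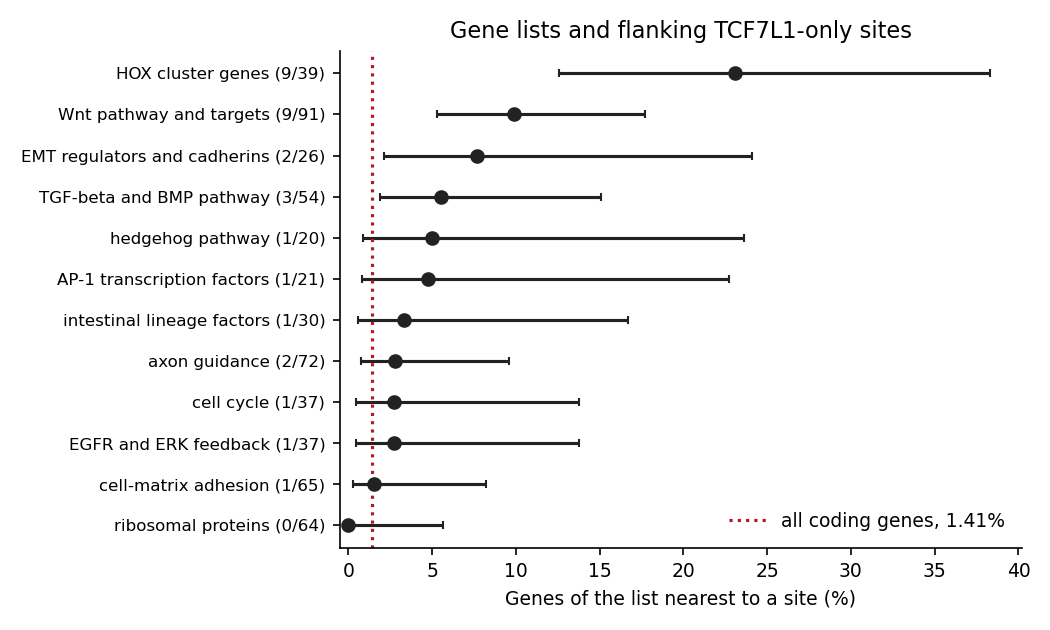
Percentage of the genes of each list that were nearest to at least 1 of the 282 sites, with 95% Wilson intervals, beside 1.41% of all protein-coding genes (dotted line). HOX cluster genes at 23.1% and Wnt genes at 9.89% have the highest shares, and no ribosomal protein gene had a site.

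The remaining lists had 3 genes or fewer each. TGF-β and BMP genes had 3 of 54, SMAD2, a signal transducer (5.42), TGFBR3, a coreceptor (3.86), and ID4, an inhibitor of helix-loop-helix factors (3.65). Regulators of epithelial-mesenchymal transition and cadherins had 2 of 26, CDH2, or N-cadherin (3.32), and ZEB2, a repressor of E-cadherin (3.20, with a −log10 q-value of 1.38). Axon guidance genes had 2 of 72, the repulsive receptor ROBO2 (4.45) and the ligand NTN1 (4.34). The values in parentheses are fold enrichments. In the same order, the shares of the lists were 5.56% (interval 1.91 to 15.1%), 7.69% (2.14 to 24.1%) and 2.78% (0.765 to 9.57%).

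Single genes were found in 6 lists. They were CDK6, a G1 kinase, of 37 cell cycle genes (fold enrichment 5.47), ERBB4, a receptor kinase, of 37 EGFR and ERK genes (4.54), LIMS1, an integrin adaptor, of 65 adhesion genes (4.45), CDON, a hedgehog coreceptor, of 20 hedgehog genes (4.31), CDX2, the intestinal homeobox factor, of 30 intestinal lineage genes (3.84), and BATF3 of 21 AP-1 genes (3.64). At CDX2 the site was island-like, 3176 bp downstream, with a TCF pattern 12 bp from the summit. Ribosomal protein genes had 0 of 64, with an upper Wilson bound of 5.66%. The intervals of the lists with 1 gene and of the axon guidance list all reached below 1.41%.

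Values at the distance limits varied without a step. Excluded at the near limit were sites at SMC3 (989 bp, fold enrichment 3.30) and SLC22A11 (1000 bp, 5.52), and included were SPX (1019 bp, 5.60) and COLEC12 (1021 bp, 5.22). At the far limit RHPN2 (4965 bp, 4.84) and CAPN2 (4990 bp, 5.31) were included, and KLRK1 (5002 bp, 4.76) and IQUB (5061 bp, 5.62) were not.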

How the data were processed

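ChIP-seq regions of 2 samples, TCF7L1 and TCF7L1-MUT, were analysed; samples were grouped by the genotype in their labels. Per the paper's methods and the labels, reads were trimmed with skewer, mapped to GRCh38/hg38 with BWA (0.7.12) and peaks were called per sample with MACS2 (2.1.0). Whether an input library was used and how duplicates and multiply mapped reads were treated is not given in the sources used here, and such choices can affect which regions are listed. The authors' lists give a fold enrichment, the ratio of reads to local background at the summit, and the −log10 of the p-value and q-value. The deposited score repeats the −log10 q-value and was not used.

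Each distinct region was represented by its summit listed first. Transcripts of type protein_coding in GENCODE release 44 gave 78398 TSS positions. Python (3.11.15), numpy (2.4.6), scipy (1.17.1), pandas (2.3.3), numba (0.67.0) and matplotlib (3.10.9) were used. The background was every 500th base of the genome at the same distance, 431761 positions, with pattern shares weighted to the sites' GC content in bins of 2%. Shares have Wilson intervals, differences Newcombe intervals, medians binomial intervals and shifts Hodges-Lehmann estimates with rank-based intervals. Reads at the summit were solved from a Poisson model with a pseudocount of 1, within 0.001 in −log10 p for all 282 sites. Copies of 31-base words were counted over 194 assembled sequences. Statistics were tested on simulated data.

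Named genes were the 8 sites with the highest fold enrichment on each side, genes nearest to 2 or more sites, up to 4 sites per gene list, the genes the study names and the regions at each distance limit; the other Wnt and HOX genes and those given for sequence were added after their values were seen. The sites and lists were chosen with earlier results of these data known. Alternatives changed the TSS set, the summit, the fold and q-value thresholds, the distance to TCF7L1-MUT regions, multi-copy sequence, and the windows and background of the patterns.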

Additional observations from a re-analysis of the deposited data

How the results depend on the processing

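No paired analysis was possible because either group held only 1 sample, which also meant that none could be dropped. Of 99 values under alternatives for 12 results, 80 kept their direction and side of the threshold or stayed within their interval or 1.5 times a count. With all transcripts of coding genes 336 sites were counted and the upstream share was 45.2%. Their median fold enrichment was 4.64 and the downstream share 3.48 points above the grid, an interval that included 0. With the 5′ end of each gene 261 sites were counted and the upstream share was 28.4%. The upstream minus downstream difference in TCF pattern share was then -4.86 points. A fold enrichment of at least 5 left 95 sites at 95 genes, with a median of 5.83, 17.9% multi-copy, 8.87 points of downstream excess, and side differences of -1.54 points for the TCF pattern and 7.08 for island-like sequence. A q-value of at most 0.001 gave a median of 4.54. The island-like difference between sides, -0.0330 points, changed sign with the highest summit (2.07), the stricter q-value (0.314) and single-copy sites (0.389), and it was -11.3 with the 5′ end of each gene, with intervals that included 0. The AP-1 ratio was 1.75 in windows of 50 bp to either side and the forkhead ratio 1.31 and 1.33 against windows 1 kb away and unweighted windows, with intervals that included 1. The downstream excess was added as a result after the data were seen. With 1 library and a median of 24.0 reads at a summit, depth limits which weak sites are listed.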

Other observations

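The following groups were named after the list of genes was seen, so their counts describe and carry no test. Gene symbols that share a stem were counted over all annotated genes. The ARID genes, DNA-binding subunits and relatives of chromatin remodelling complexes, had 5 of 10 members with a site, ARID1A, ARID1B, ARID2, ARID3B and ARID5B, with 6 sites and fold enrichments from 3.71 to 6.60. The highest was at ARID1B, in an intron of a coding gene and 2142 bp upstream of the nearest TSS. Of the 6 sites, 4 were downstream. Symbols with the stem ST had 4 of 26 genes with a site, and these 4 were sialyltransferases, ST3GAL2 (6.74), ST6GAL1 (5.08), ST6GALNAC2 (3.93) and ST8SIA4 (3.75); the stem also covers genes of other kinds.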
